A study of Mus musculus with 9 samples.

Results

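Immediate early genes and dual specificity (MAP kinase) phosphatases were followed in G1E, a line of mouse erythroid progenitors without a working Gata1 gene. The set held Dusp1, Dusp2, Dusp4, Dusp5, Dusp6, Fos, Jun, Junb, Egr1 and Ier2, taken by symbol from the table of raw counts per gene. These were 10 of its 27999 rows, and each symbol stood on 1 row. The cells had been spin-infected with virus made in 293T cells, and 3 groups were sequenced in 3 libraries each. One group received a human GATA1 mutant, one received wildtype human GATA1, and the third received the HMD vector empty. All groups grew in medium with fetal calf serum, murine SCF (the ligand of the receptor Kit) and EPO, so both growth factors were present in every library. The mutation, the time from infection to lysis, the promoter of the vector and any selection of infected cells are not stated in the labels. The comparisons ask what wildtype GATA1 changed relative to the empty vector, and how far the mutant did the same.

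Immediate early genes are transcribed within minutes of a growth factor or stress signal, without new protein synthesis. In the MAP kinase cascade a receptor such as Kit or the EPO receptor activates Ras, which activates Raf, then MEK and then ERK, and ERK and its downstream kinases phosphorylate factors that switch these genes on. Fos and Jun family proteins pair to form the AP-1 transcription factor, Egr1 is a zinc finger transcription factor, and Ier2 is a small nuclear protein. The dual specificity phosphatases close the loop: they remove the activating phosphates from MAP kinases. Dusp1 and Dusp2 act in the nucleus on ERK, p38 and JNK kinases, Dusp4 and Dusp5 are nuclear enzymes, and Dusp6 acts on ERK in the cytoplasm. GATA1 drives erythroid differentiation as a DNA-binding factor, and restoring it to G1E cells makes them mature towards red blood cells.

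Promoter sequences of the 3 genes that were called higher with wildtype GATA1 and of Fos, an AP-1 partner of Jun and Junb that did not pass the test, are shown because they differ in the elements they hold. They run from 250 bases before to 50 bases after the RefSeq gene start (GRCm38.p6), written 5′ to 3′ on the gene's strand. RefSeq promoters were at hand for 7 of the 10 genes, Dusp1, Dusp2, Dusp5, Dusp6, Fos, Jun and Junb. Capitals mark TGACG, the core of the cAMP response element, in Dusp1, Fos and Junb, and a GATA motif in Jun. The windows are chr17:26508423-26508722 on the minus strand, chr8:84978699-84978998 on the minus strand, chr4:95052173-95052472 on the minus strand and chr12:85473640-85473939 on the plus strand.
Dusp1: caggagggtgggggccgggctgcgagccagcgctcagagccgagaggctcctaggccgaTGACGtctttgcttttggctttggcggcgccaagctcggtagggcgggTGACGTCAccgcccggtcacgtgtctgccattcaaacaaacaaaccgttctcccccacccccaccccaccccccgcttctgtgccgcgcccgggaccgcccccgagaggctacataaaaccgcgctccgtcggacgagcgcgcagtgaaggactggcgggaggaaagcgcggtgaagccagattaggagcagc
Junb: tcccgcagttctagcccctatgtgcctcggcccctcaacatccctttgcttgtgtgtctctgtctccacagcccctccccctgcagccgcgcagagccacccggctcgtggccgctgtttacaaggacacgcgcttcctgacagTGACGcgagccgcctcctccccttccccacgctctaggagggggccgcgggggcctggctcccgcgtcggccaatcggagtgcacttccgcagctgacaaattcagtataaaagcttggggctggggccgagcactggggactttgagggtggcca
Jun: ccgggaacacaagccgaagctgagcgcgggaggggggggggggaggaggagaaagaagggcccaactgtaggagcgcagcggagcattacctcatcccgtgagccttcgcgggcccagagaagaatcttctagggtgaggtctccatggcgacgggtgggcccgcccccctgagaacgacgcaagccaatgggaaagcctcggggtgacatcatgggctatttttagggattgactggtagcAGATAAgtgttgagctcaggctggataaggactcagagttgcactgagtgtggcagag
Fos: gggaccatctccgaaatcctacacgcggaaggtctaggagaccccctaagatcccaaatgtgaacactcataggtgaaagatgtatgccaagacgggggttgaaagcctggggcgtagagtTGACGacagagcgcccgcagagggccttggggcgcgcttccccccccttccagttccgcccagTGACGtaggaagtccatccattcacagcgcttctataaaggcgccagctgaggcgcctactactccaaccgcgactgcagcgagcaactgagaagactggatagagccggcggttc
The Dusp1 window held the full palindromic element TGACGTCA, with its first base at position -143, and a further core at -191. The full element was present in 1.79% of 32851 RefSeq promoters of the same length, and the core TGACG in 20.8%. Fos held cores at -129 and -66, and Junb at -106. The Jun window held AGATAA at -8. This is a form of the GATA motif (the letters GATA with A or T before them and A or G after them), of which 29.8% of all promoters held at least 1, and no form of it was found in the windows of the other 6 genes. The CArG box, the site of serum response factor, was found in the Dusp5 window only, at 2 positions, against 1.63% of all promoters with at least 1. The AP-1 element was searched only as the exact letters TGACTCA (5.2% of promoters), which were found in none of the 7. The EGR site GCGTGGGCG or GCGGGGGCG (3.47%) was found in Dusp2 only, at -98. The GC box GGGCGG (35.7%) was found in Dusp1, Dusp2, Dusp5, Fos and Jun, and TATAAA (13.6%) in Fos and Junb. Both strands were searched, and a full element also counts as a core. These matches are descriptions of the letters and not of bound sites. Only set letter patterns within the 7 windows were searched, so variant forms and sites further upstream were not counted.

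Library totals ranged from 11364358 to 17289307 counts. Levels are given as CPM, counts scaled to a common library size that was adjusted by TMM (edgeR). A count of 0 allows up to 3 counts, which corresponded to 0.170 to 0.289 CPM in a single library; such floors cover counting error only. The human GATA1 row checks the empty vector label but cannot tell mutant from wildtype. Scaled to total counts without TMM, it had 598 to 706 CPM in the mutant libraries and 715 to 921 CPM in the wildtype libraries. It had 0, 2 and 0 counts in the empty vector libraries. All 5 markers of G1E progenitors (Gata2, Kit, Tal1, Epor and Klf1) were detected in all 9 libraries, at different levels. Kit averaged 602 CPM in mutant, 248 CPM in wildtype and 661 CPM in empty vector cells, and Gata2 286 CPM in mutant, 103 CPM in wildtype and 328 CPM in empty vector cells, while Epor and Klf1 were highest in wildtype cells (Klf1 at 340 CPM in mutant, 615 CPM in wildtype and 260 CPM in empty vector cells). Erythroid markers moved with the wildtype group: the sum of 7 of 7 detected markers was 1788 to 1956 CPM in mutant libraries, 16265 to 27997 CPM in wildtype libraries and 685 to 781 CPM in empty vector libraries. Markers of 3 other lineages were low. The mast cell and basophil list (6 genes, Mcpt8 at 0 throughout) summed to 11.2 to 14.7 CPM in mutant, 4.04 to 5.39 CPM in wildtype and 30.9 to 36.3 CPM in empty vector libraries. The megakaryocyte list (6 genes, Gp1bb and Vwf at 0) summed to 36.4 to 41.0 CPM in mutant, 23.8 to 30.0 CPM in wildtype and 49.2 to 54.7 CPM in empty vector libraries. The granulocyte and monocyte list (7 genes, Elane and Ly6g at 0) stayed at or under 2.92 CPM. The part of these shifts in the results below was not tested, and in bulk RNA a change in the number of cells of a type and a change in RNA per cell cannot be told apart.

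Of the 10 genes, 6 passed the filter on low counts and were tested among 9978 genes: Dusp1, Fos, Jun, Junb, Egr1 and Ier2. With wildtype GATA1 against the empty vector, Dusp1, Junb and Jun rose and Egr1 and Ier2 fell, though the Jun call was lost in 13 of 15 alternative analyses. That is 3 of 6 higher and 2 of 6 lower, against 11.4% higher and 11.9% lower among all tested genes (23.3% in all). The wildtype and empty vector libraries did not overlap for 5 of the 6, against 32.6% of all tested genes. With mutant GATA1 against the empty vector no gene of the set was called by edgeR in either direction, where 0.210% of all genes were called higher, 0.0601% lower and 0.271% in either direction. Yet 2 of the 6 (Jun and Dusp1) had an unadjusted p under 0.05, against 12.9% of all genes, and DESeq2 called 1, Jun, where it called 1.02% of all genes. Between mutant and wildtype, Egr1 and Ier2 were higher in mutant cells and Dusp1 and Junb lower, which is 2 of 6 in each direction against 13.2% higher and 12.7% lower (25.9% in all) among all genes. Mutant and wildtype libraries did not overlap for 5 of the 6, against 44.2% of all genes, and mutant and empty vector libraries for 2 of the 6, against 15.0%. The median log2 fold change of the 6 was 0.26 in wildtype against empty vector (-0.04 over all genes), 0.27 in mutant against empty vector (-0.00 over all genes) and 0.51 in mutant against wildtype (-0.01 over all genes). The genes were chosen with earlier results of these data known, so these shares carry no test of the set. The comparisons share libraries (the same empty vector or wildtype cells) and are not independent of each other.

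**Figure D1:**
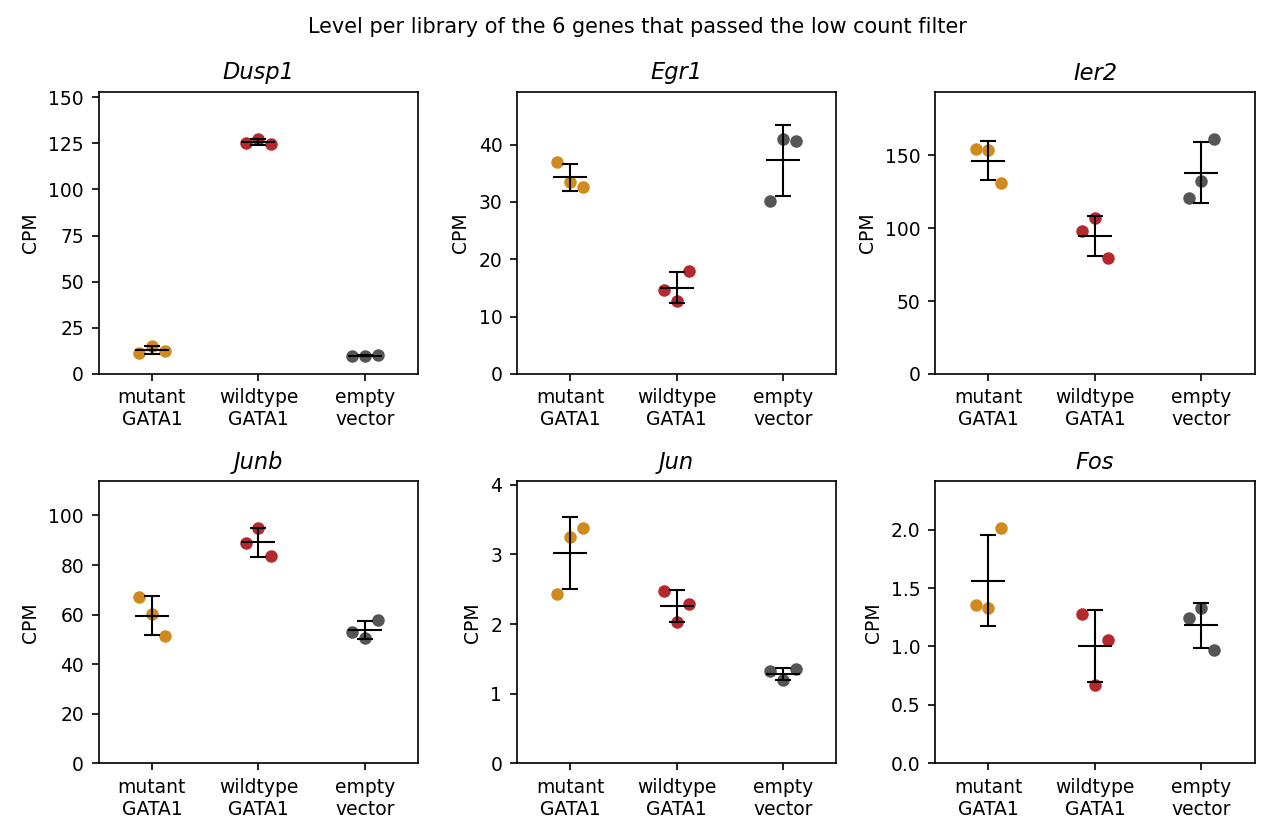
Level of Dusp1, Egr1, Ier2, Junb, Jun and Fos in CPM on linear axes from 0, by library (points) in mutant GATA1, wildtype GATA1 and empty vector cells; the long bar is the mean and the error bar the SD of 3 libraries. The wildtype libraries stand apart from both other groups for Dusp1 and Junb, which are higher, and for Egr1 and Ier2, which are lower, while Jun is lowest in the empty vector libraries.

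Dusp1 encodes MKP-1, the nuclear phosphatase that inactivates p38, JNK and ERK. It lies on chromosome 17 at 26505590 to 26562128, minus strand (GRCm38, GENCODE annotation). The promoter with the full cAMP response element printed above is that of the RefSeq start, which lies inside this span and not at its end. Dusp1 had 11.2, 15.2 and 12.3 CPM in mutant libraries, 125, 127 and 125 CPM in wildtype libraries, and 9.76, 9.86 and 10.04 CPM in empty vector libraries. The wildtype libraries were far above all others and nearly equal to one another, and each mutant library lay above each empty vector library by a small margin. The mean was 12.9 ± 2.06 CPM in mutant cells, 126 ± 1.45 CPM in wildtype cells and 9.88 ± 0.145 CPM in empty vector cells (SD, n = 3 each). Dusp1 rose 12.7-fold with wildtype GATA1 over the empty vector, a log2 fold change of 3.67 ± 0.14 (SE; edgeR quasi-likelihood test, Benjamini-Hochberg adjusted p = 2.7e-09). In mutant cells it was far below wildtype, with a log2 fold change of -3.28 ± 0.14 (edgeR adjusted p = 1.37e-08) and a mean that was 10.3% of the wildtype mean. Against the empty vector the mutant difference was 0.38 ± 0.14 on the log2 scale and did not pass the test (edgeR adjusted p = 0.343). The SD among wildtype libraries was 1.15% of their mean, where counting error alone at these counts gives 2.64%, so their spread was no larger than sampling noise. Dusp1 shares 11 exonic bases with Ergic1 on the opposite strand, which averaged 105 ± 6.33 CPM in mutant, 73.6 ± 1.72 CPM in wildtype and 101 ± 15.7 CPM in empty vector cells (SD, n = 3 each).

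The other 4 phosphatases of the set were near or below detection in every group. Dusp4, a nuclear MAP kinase phosphatase, had 6, 2 and 9 counts in mutant libraries, 0, 3 and 5 counts in wildtype libraries and 7, 0 and 8 counts in empty vector libraries. These groups overlapped, and no more than 9 counts stood in any library. Dusp2, an inducible nuclear phosphatase known from blood cells, had 1 count in mutant library 3 and none elsewhere. Dusp5, an ERK-specific nuclear phosphatase, had 1 count in empty vector library 3 and none elsewhere. Dusp6, the cytoplasmic ERK phosphatase, had no count in any of the 9 libraries, which allows a mean of up to 0.0604 CPM in mutant cells, 0.0875 CPM in wildtype cells and 0.0690 CPM in empty vector cells (3 counts over each group). All 4 failed the low count filter. Without that filter Dusp4 had an edgeR adjusted p of 1 in mutant against empty vector, 0.703 in wildtype against empty vector and 0.694 in mutant against wildtype, and a difference was not detectable at this depth. Dusp2 lies on chromosome 2 (127336159 to 127338376), Dusp4 on chromosome 8 (34807297 to 34819894), Dusp5 on chromosome 19 (53529109 to 53542431) and Dusp6 on chromosome 10 (99263231 to 99267489), all on the plus strand.

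Egr1, whose protein binds GC-rich promoter sites and is a standard readout of ERK activity, went the other way from Dusp1. It had 36.9, 33.4 and 32.5 CPM in mutant libraries, 14.6, 12.7 and 17.9 CPM in wildtype libraries and 30.1, 41.0 and 40.6 CPM in empty vector libraries. Each wildtype library lay below each library of both other groups, and the mutant libraries lay within the range of the empty vector ones. The mean was 34.3 ± 2.31 CPM in mutant, 15.1 ± 2.64 CPM in wildtype and 37.2 ± 6.15 CPM in empty vector cells (SD, n = 3 each). Egr1 fell with wildtype GATA1 to 40.4% of the empty vector mean, a log2 fold change of -1.30 ± 0.17 (edgeR adjusted p = 0.000107). It was 2.27-fold higher in mutant than in wildtype cells (log2 fold change 1.18 ± 0.17, edgeR adjusted p = 0.000273). Against the empty vector the mutant value was -0.12 ± 0.16 on the log2 scale (edgeR adjusted p = 0.756). Egr1 lies on chromosome 18 at 34859823 to 34864984, plus strand.

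Ier2, a nuclear immediate early protein, followed the direction of Egr1 with smaller differences. Its levels were 154, 154 and 131 CPM in mutant libraries, 98.0, 107 and 79.8 CPM in wildtype libraries and 121, 132 and 161 CPM in empty vector libraries. The wildtype libraries were again below all others, while mutant and empty vector libraries overlapped. The mean was 146 ± 13.5 CPM in mutant, 94.9 ± 13.8 CPM in wildtype and 138 ± 20.9 CPM in empty vector cells (SD, n = 3 each). Ier2 fell with wildtype GATA1 to 68.7% of the empty vector mean, a log2 fold change of -0.54 ± 0.14 (edgeR adjusted p = 0.0162); without wildtype library 1 that call was lost (edgeR adjusted p = 0.0695), and over all alternatives the adjusted p ranged from 0.00171 to 0.0695. It was 1.54-fold higher in mutant than in wildtype cells (log2 fold change 0.63 ± 0.14, edgeR adjusted p = 0.00747). The mutant value against the empty vector was 0.08 ± 0.14 (edgeR adjusted p = 0.814). Ier2 is a gene with 1 exon on chromosome 8 at 84661331 to 84662852, minus strand.

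Junb, the AP-1 subunit that often restrains proliferation and opposes Jun, rose with wildtype GATA1. It had 67.0, 60.4 and 51.2 CPM in mutant libraries, 89.0, 94.8 and 83.4 CPM in wildtype libraries and 53.0, 50.5 and 57.8 CPM in empty vector libraries. Each wildtype library exceeded each of the other 6, and mutant and empty vector libraries overlapped. The mean was 59.5 ± 7.90 CPM in mutant, 89.1 ± 5.70 CPM in wildtype and 53.8 ± 3.69 CPM in empty vector cells (SD, n = 3 each). The rise over the empty vector was 1.66-fold (log2 fold change 0.73 ± 0.13, edgeR adjusted p = 0.00118). Mutant cells had less Junb than wildtype cells, with a log2 fold change of -0.58 ± 0.13 (edgeR adjusted p = 0.00559), and differed from the empty vector by 0.15 ± 0.13 (edgeR adjusted p = 0.611).

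The 3′ end of Junb (chromosome 8, 84974484 to 84978718, minus strand) shares 173 exonic bases with Prdx2, an abundant antioxidant enzyme of red cells that is encoded on the opposite strand (84969587 to 84974834). The library method keeps no strand, so reads in that stretch cannot be assigned by strand. Prdx2 averaged 682 ± 49.9 CPM in mutant, 2425 ± 526 CPM in wildtype and 571 ± 70.2 CPM in empty vector cells (SD, n = 3 each). Prdx2 rose with wildtype GATA1 by 2.09 ± 0.16 on the log2 scale (edgeR adjusted p = 1.6e-06) and was lower in mutant than in wildtype cells by -1.83 ± 0.16 (edgeR adjusted p = 5.91e-06). Junb counts were 8.21% to 9.48% of the Prdx2 counts in mutant libraries, 3.34% to 4.55% in wildtype libraries and 8.25% to 10.2% in empty vector libraries. Within each group the same library was lowest for both genes (mutant library 3, wildtype library 3 and empty vector library 2). The highest library was the same only in the wildtype group (library 2). It was mutant library 1 for Junb and mutant library 2 for Prdx2. Among empty vector libraries it was library 3 for Junb and library 1 for Prdx2. The part of reads from the shared stretch in the Junb difference was not tested.

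**Figure D2:**
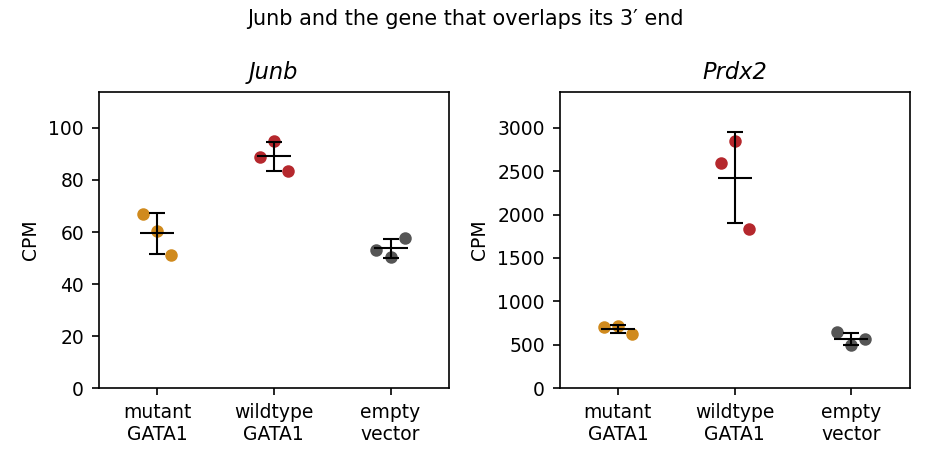
Level of Junb (left) and of Prdx2, the gene on the opposite strand that overlaps its 3′ end (right), in CPM on linear axes from 0 by library in mutant GATA1, wildtype GATA1 and empty vector cells; the long bar is the mean and the error bar the SD of 3 libraries. Both genes are highest in wildtype cells, with a Prdx2 mean of 682 CPM in mutant, 2425 CPM in wildtype and 571 CPM in empty vector cells and a Junb mean of 59.5 CPM in mutant, 89.1 CPM in wildtype and 53.8 CPM in empty vector cells.

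Jun, the core subunit of AP-1 and a target of JNK, was expressed at a low level. It had 2.43, 3.26 and 3.38 CPM in mutant libraries, 2.48, 2.02 and 2.28 CPM in wildtype libraries and 1.32, 1.19 and 1.35 CPM in empty vector libraries, from 17 to 54 counts per library. The empty vector libraries lay below all others, and mutant and wildtype libraries overlapped. Jun was called higher with wildtype GATA1 than with the empty vector (1.76-fold, log2 fold change 0.81 ± 0.26, edgeR adjusted p = 0.0411), but the call was lost in 13 of 15 alternatives, whose adjusted p ranged from 0.0363 to 0.144. The mutant value was larger, 1.22 ± 0.25 on the log2 scale, yet did not pass the test (edgeR adjusted p = 0.0741). Without empty vector library 3 it passed (edgeR adjusted p = 0.0305), a setting that called 8.3% of all genes in place of 0.271%. It also passed with DESeq2 (adjusted p = 0.0399). Over all alternatives its adjusted p ranged from 0.0107 to 0.393. Mutant and wildtype did not differ past the test in Jun (0.41 ± 0.24, edgeR adjusted p = 0.223). Jun is a gene with 1 exon on chromosome 4 (95049034 to 95052222, minus strand), and its 5′ end shares 232 exonic bases with the antisense gene Junos, which had 1 to 4 counts per library.

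Fos, the partner of Jun in AP-1 and the textbook immediate early gene, had 7 to 31 counts per library. Its levels were 1.36, 1.33 and 2.01 CPM in mutant libraries, 1.28, 0.674 and 1.05 CPM in wildtype libraries and 1.25, 1.33 and 0.966 CPM in empty vector libraries. The wildtype and empty vector libraries overlapped, and the mutant libraries lay just above the wildtype ones, by less than 0.1 CPM at the nearest pair. None of the differences passed the test: the log2 fold change was -0.21 ± 0.35 in wildtype against empty vector (edgeR adjusted p = 0.697), 0.40 ± 0.31 in mutant against empty vector (edgeR adjusted p = 0.568) and 0.61 ± 0.33 in mutant against wildtype (edgeR adjusted p = 0.194). Fos lies on chromosome 12 at 85473890 to 85477273, plus strand.

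**Figure D3:**
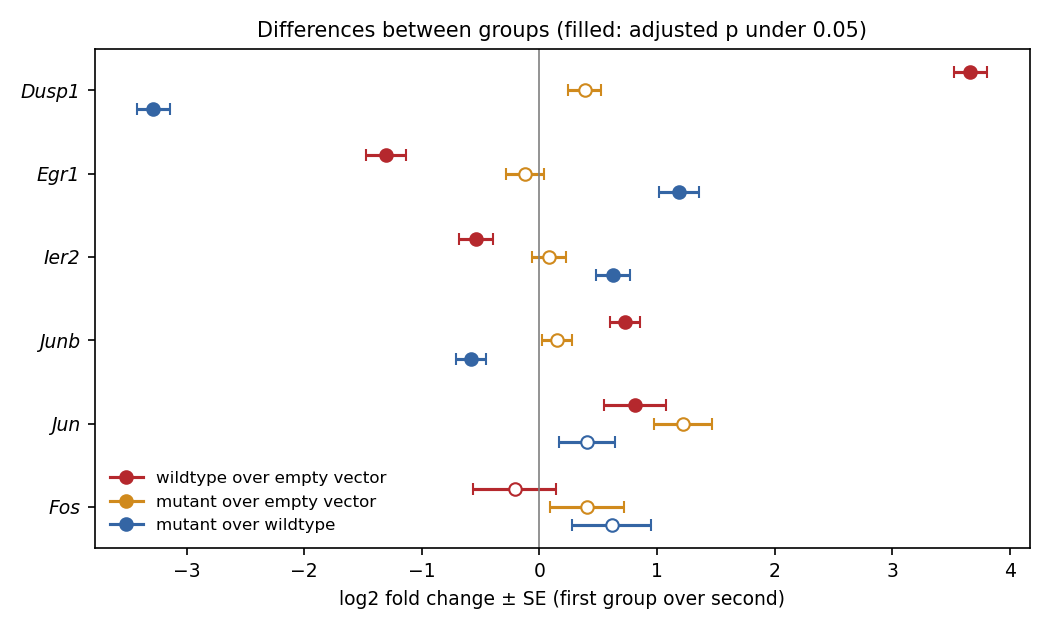
Log2 fold change (horizontal axis, SE as error bars) of the 6 tested genes in wildtype over empty vector, mutant over empty vector and mutant over wildtype; filled points have an edgeR adjusted p under 0.05. Dusp1 stands at 3.67 with wildtype GATA1 and 0.38 with the mutant, Egr1 at -1.30 and -0.12, and Jun at 0.81 with wildtype GATA1 and 1.22 with the mutant.

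Levels of different genes were compared per kilobase of exon. In mutant cells the order was Ier2 (96.1 ± 8.84 CPM per kilobase), Junb (25.9 ± 3.43), Egr1 (7.65 ± 0.516), Dusp1 (3.90 ± 0.623), Jun (0.947 ± 0.162) and Fos (0.666 ± 0.165; SD, n = 3), and Jun and Fos overlapped. In wildtype cells Ier2 (62.3 ± 9.06 CPM per kilobase) was followed by Junb (38.7 ± 2.48) and Dusp1 (37.9 ± 0.437), which overlapped, and then by Egr1 (3.36 ± 0.589), Jun (0.709 ± 0.0721) and Fos (0.426 ± 0.130). In empty vector cells the order was Ier2 (90.7 ± 13.7 CPM per kilobase), Junb (23.4 ± 1.60), Egr1 (8.31 ± 1.37), Dusp1 (2.99 ± 0.0439), Fos (0.502 ± 0.0809) and Jun (0.404 ± 0.0272), where Fos and Jun overlapped. Dusp1 was therefore above Egr1 in wildtype cells and below it in both other groups. The place of Dusp1 depends on the length used: with the 1990 bases of its principal transcript in place of the 3311 bases of all its exons, Dusp1 had 63.1 CPM per kilobase in wildtype cells, beside 62.3 for Ier2 and 49.2 for Junb.

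For each tested gene the genes with the most similar profile over the 9 libraries were listed by Pearson correlation of log2 CPM, as a description only, since the 9 libraries share 3 groups. Dusp1 was closest to Mybpc3 (r = 0.996), Fam132b, which encodes the hormone erythroferrone (0.996), and Epb42, the membrane skeleton protein 4.2 (0.994). Mybpc3 averaged 0.0201 CPM in mutant, 58.6 CPM in wildtype and 0 CPM in empty vector cells, and Epb42 averaged 21.1 CPM in mutant, 88.3 CPM in wildtype and 16.9 CPM in empty vector cells. Junb was closest to Crip2 (0.995), Cdca3 (0.988) and Epor, the receptor of EPO (0.982), with Epor at 180 CPM in mutant, 314 CPM in wildtype and 153 CPM in empty vector cells. Egr1 was closest to Cyfip1 (0.996), Tmem164 (0.994) and Lpar2 (0.992), and Ier2 to Gart (0.989), Fhl3 (0.988) and Glb1 (0.987). For the low genes the nearest profiles were looser: Trmt44 (0.928), Tal1 (0.914) and Slc40a1 (0.886) for Jun, and Rad54b (0.919), Srxn1 (0.919) and Uspl1 (0.912) for Fos.

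The rest of the pathway was read from 5 lists, none of which holds a gene of the set. Of 41 other immediate early genes, 22 were tested. With wildtype GATA1 against the empty vector 10 fell and 2 rose (54.5% called, beside 23.3% of all genes), and the median of the 22 was -0.45 (log2 fold change) beside -0.04 over all genes. Btg2, an antiproliferative protein, rose by 3.25 ± 0.15 (edgeR adjusted p = 1.31e-08), and Ppp1r15a, which restores translation by dephosphorylating eIF2 alpha, rose by 2.23 ± 0.16 (edgeR adjusted p = 5.87e-07). Sgk1, a kinase of the PI3 kinase pathway, fell by 1.64 on the log2 scale (SE 0.14, edgeR adjusted p = 2.81e-06). In mutant against wildtype cells 10 were higher and 2 lower (54.5% called, beside 25.9% of all genes; median 0.44 beside -0.01), with Btg2 at -3.09 ± 0.15, Ppp1r15a at -1.75 ± 0.15 and Nfkbia, the inhibitor of NF-kappaB, at 0.94 ± 0.16 (edgeR adjusted p = 3.11e-08, 5.1e-06 and 0.00115). Without mutant library 1 the 10 higher became 6. Mutant against empty vector gave 1 call (4.55% of the 22, beside 0.271% of all genes), Sgk1 at -0.85 ± 0.13 (edgeR adjusted p = 0.0171). The Sgk1 call was lost without any 1 of the mutant libraries and without empty vector library 1 or 2. Its adjusted p over all alternatives ranged from 1.81e-06 to 0.157. Ier3 (-0.65 ± 0.17) and Ppp1r15a (0.48 ± 0.15) were the next by p in that comparison and did not pass (edgeR adjusted p = 0.189 and 0.316).

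Of 17 other dual specificity phosphatases, 7 were tested, and 1 was called, which is 14.3% beside 23.3% of all genes in wildtype against empty vector and 25.9% in mutant against wildtype. Dusp7, a cytoplasmic ERK phosphatase, averaged 7.23 CPM in mutant, 3.86 CPM in wildtype and 6.23 CPM in empty vector cells. It fell with wildtype GATA1 by 0.70 on the log2 scale (SE 0.23, edgeR adjusted p = 0.0418), a call that was lost in 10 of 16 alternatives, with adjusted p from 0.00775 to 0.208. It was higher in mutant than in wildtype cells by 0.91 ± 0.22 (edgeR adjusted p = 0.0106), which was lost without wildtype library 1 (edgeR adjusted p = 0.0547, with 0.00169 the lowest over the alternatives). In mutant against wildtype the 1 higher call became 2 without wildtype library 3, and 2 in a fit to the 6 libraries compared that had replicate number as a block. Dusp16, which acts on JNK and p38, did not pass the test, with -0.12 ± 0.18 in wildtype against empty vector and 0.37 ± 0.18 in mutant against wildtype (edgeR adjusted p = 0.664 and 0.134). Dusp28 was at 0.20 ± 0.18 in wildtype against empty vector (edgeR adjusted p = 0.435) and Dusp19 at -0.36 ± 0.18 in mutant against wildtype (edgeR adjusted p = 0.156). Dusp3 was at -0.26 ± 0.15 in mutant against empty vector (edgeR adjusted p = 0.457). There Dusp19 was at -0.31 ± 0.18 and Dusp16 at 0.26 ± 0.17 (edgeR adjusted p = 0.457 and 0.517). The median log2 fold change of the 7 was -0.04 in wildtype against empty vector, beside -0.04 over all genes. Dusp8, a JNK and p38 phosphatase that is named here after its values were seen, failed the low count filter. It had 0, 1 and 0 counts in mutant libraries, 10, 22 and 6 counts in wildtype libraries and none in the empty vector libraries, so each wildtype library lay above all others. Its wildtype mean was at least 16.6-fold higher than 3 counts over the empty vector group allow. Dusp8 was tested in 9 alternatives. These included the fit with no low count filter and the fit with mutant libraries 1 and 2 summed. The others left out any 1 mutant library, wildtype library 3 or any 1 empty vector library. In each, Dusp8 was called higher in wildtype than in empty vector cells and lower in mutant than in wildtype cells. Where a filter applied, Dusp8 passed it only through its wildtype counts, so these calls do not count as a test of it. In these alternatives the list had 1 higher call in place of 0 in wildtype against empty vector, and 1 lower call in place of 0 in mutant against wildtype.

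Of 14 other feedback and target genes of ERK, 6 were tested. Etv5, an ETS factor induced by ERK, fell with wildtype GATA1 by 0.73 on the log2 scale (SE 0.15, edgeR adjusted p = 0.00366), and was higher in mutant than in wildtype cells by 0.64 ± 0.15 (edgeR adjusted p = 0.00878). Spred1 and Spred2, which block activation of Raf, fell with wildtype GATA1 as well, at -1.09 ± 0.30 and -0.73 ± 0.22 (edgeR adjusted p = 0.0193 and 0.0275). That is 3 of 6 lower (50% of the list called, beside 23.3% of all genes called and 11.9% lower). The median was -0.51 beside -0.04 over all genes. The 3 became 1 without wildtype library 1, without wildtype library 2 and without empty vector library 2. In mutant against wildtype cells Etv5 was the only gene of the list that was called (16.7%, beside 25.9% of all genes). The count became 2 without wildtype library 3 and 2 with the replicate block in 6 libraries. Spry1, a Ras pathway inhibitor, was at 0.36 ± 0.16 and Spred2 at 0.47 ± 0.22 in that comparison (edgeR adjusted p = 0.107 and 0.127). In mutant against empty vector Spred1 was at -0.80 ± 0.29 and Spry1 at 0.27 ± 0.15 (edgeR adjusted p = 0.343 and 0.456). Phlda1 was at -0.39 ± 0.24 in mutant against empty vector (edgeR adjusted p = 0.478).

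Of 35 genes of the MAP kinase cascade, 31 were tested. With wildtype GATA1 against the empty vector 8 fell and 3 rose (35.5% called, beside 23.3% of all genes; median -0.26 beside -0.04). Grb2, the adaptor that links receptors to Ras activation, fell by 1.03 on the log2 scale (SE 0.12, edgeR adjusted p = 5.78e-05). Rps6ka1, the ERK-activated kinase RSK1, fell by 1.72 (SE 0.21, edgeR adjusted p = 8.13e-05), and Mapkapk2, the kinase downstream of p38, fell by 0.73 (SE 0.13, edgeR adjusted p = 0.00175). The 3 higher became 1 without wildtype library 1, wildtype library 2 or empty vector library 1, and 0 without empty vector library 2. In mutant against wildtype cells 7 were higher and 2 lower, a share of 29.0% that is near the 25.9% of all tested genes, with Rps6ka1 at 1.82 ± 0.21, Grb2 at 0.59 ± 0.12 and Mapkapk2 at 0.69 ± 0.13 (edgeR adjusted p = 5.91e-05, 0.004 and 0.00262). The 7 became 3 without mutant library 1 or 2 and 4 without wildtype library 1; the 2 lower became 0 without any 1 of these and 1 without wildtype library 3. With the replicate block in 6 libraries the counts were 11 higher and 5 lower. Grb2 was at -0.44 ± 0.12 in mutant against empty vector and did not pass the test (edgeR adjusted p = 0.235). Rasa1, a Ras inhibitor, and Map2k4, a kinase of JNK, were at -0.61 ± 0.27 and -0.34 ± 0.15 in mutant against empty vector (edgeR adjusted p = 0.383 and 0.382).

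Of 12 SRF, TCF and CREB regulators, which act on the promoters of immediate early genes, 11 were tested. Mkl1 and Mkl2, coactivators of serum response factor, fell with wildtype GATA1 by 0.75 and 0.70 on the log2 scale (SE 0.19 and 0.22, edgeR adjusted p = 0.0135 and 0.0352), and were the only 2 called (18.2%, beside 23.3% of all genes). The 2 became 0 without wildtype library 1, wildtype library 2 or empty vector library 2, and 1 without mutant library 1 or 2. They also became 1 with only the 6 libraries compared and with mutant libraries 1 and 2 summed. The Mkl1 call held in 13 of 16 alternatives and the Mkl2 call in 8 of 16. For Mkl2 the adjusted p ranged from 0.0053 to 0.128. In mutant against wildtype cells 3 were higher and 2 lower (45.5% called, beside 25.9%), with Mkl1 at 1.03 ± 0.19, Mkl2 at 1.08 ± 0.22 and Crem, a cAMP-responsive factor, at -1.02 ± 0.20 (edgeR adjusted p = 0.00195, 0.00332 and 0.00278). The 3 became 5 without wildtype library 3 and 6 with the replicate block in 6 libraries, and the 2 lower became 1 without mutant library 1 or 2, any wildtype library or empty vector library 2. Crem averaged 12.3 CPM in mutant, 24.9 CPM in wildtype and 18.1 CPM in empty vector cells, and its wildtype value against the empty vector, 0.46 ± 0.20, did not pass the test (edgeR adjusted p = 0.112). In mutant against empty vector Crem was at -0.56 ± 0.20 (edgeR adjusted p = 0.343). Ep300, an acetyltransferase that CREB recruits, was at 0.58 ± 0.23 and Srf at 0.45 ± 0.20 in that comparison (edgeR adjusted p = 0.355 and 0.379). Srf also stands in the list of other immediate early genes.

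In mutant against empty vector, edgeR called 0 genes in the phosphatase, ERK feedback, MAP kinase and SRF lists, beside 0.271% of all genes. Unadjusted p was under 0.05 for 0 of 7, 1 of 6, 5 of 31 and 3 of 11 of their tested genes, beside 12.9% of all genes. DESeq2 called 0 in each, beside 1.02% of all genes. At such low shares, 0 calls in lists of this size say little about the lists. Without empty vector library 3 the ERK feedback, MAP kinase and SRF lists each had 1 lower call, in a setting where lower calls over all genes went to 610 in place of 6 (6.05% of genes). With no low count filter the ERK feedback list had 1 lower call and the SRF list 1 higher call. That setting called 2.76% of all genes.

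**Figure D4:**
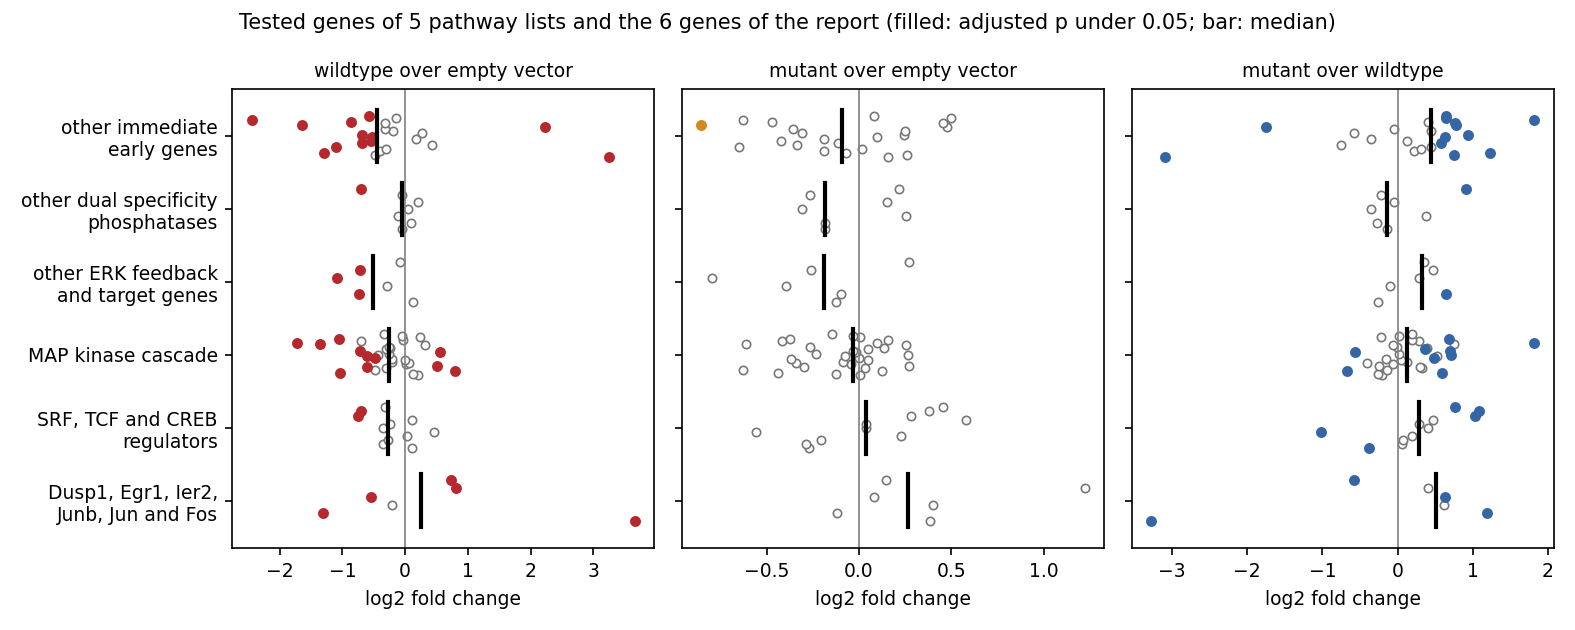
Log2 fold change (horizontal axes, scales differ between panels) of each tested gene in 5 pathway lists and of the 6 tested genes of the set, in wildtype over empty vector, mutant over empty vector and mutant over wildtype; filled points have an edgeR adjusted p under 0.05 and vertical bars are medians. Most filled points of the other immediate early genes lie below 0 with wildtype GATA1 (10 of 12) and above 0 in mutant over wildtype (10 of 12), and the middle panel holds 1 filled point, Sgk1.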

How the data were processed

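The authors deposited a single table with raw gene counts for 9 libraries, made from total RNA with Smart-seq2 and Nextera-based indexing, per the labels' protocols. Reads were aligned with STAR to GRCm38.p4 and hg19, per the submitters' processing notes. Which STAR version, counting tool and annotation were used is not given in the sources used here. The kit keeps no strand, so overlapping genes on opposite strands cannot be told apart.

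The counts were analysed with edgeR 4.0.16 in R 4.3.3: TMM scaling, filterByExpr with the groups, glmQLFit and glmQLFTest with 1 mean per group over 9 libraries (6 residual degrees of freedom), and Benjamini-Hochberg adjustment over 9978 mouse genes in each comparison. A gene was called at an adjusted p under 0.05. The SE is the log2 fold change divided by the square root of F. The human GATA1 row stayed out of the fits. Similar profiles were sought among tested genes that averaged 5 CPM or more (log2 with a prior count of 2, predicted genes left out), 3 per gene; from each pathway list and comparison the 3 tested genes with the smallest p were named, and from the set all 10. Exon lengths and gene positions come from the GENCODE annotation of GRCm38.

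The genes of the set, the lists and the tests were chosen with earlier results of these data known. The series calls the libraries biological replicates, but nothing says whether they came from separate infections, so p-values measure only the spread between these libraries. Alternatives were no low count filter, at least 5 CPM in 3 libraries, RLE scaling, DESeq2 1.42.0, only the 6 libraries compared, the replicate number as a block, mutant libraries 1 and 2 summed, and leaving out each library in turn. Mutant libraries 1 and 2 were closer to each other (chi-square per degree of freedom 2.21) than other pairs within a group (15.0 to 55.5), but differed by more than sampling noise and were kept apart. Same-numbered mutant and wildtype libraries deviated together from their group means (r = 0.17, 0.29 and 0.53). So did mutant 1 with wildtype 2 (r = 0.24) and mutant 2 with wildtype 1 (r = 0.22), while library 3 had negative r with libraries 1 and 2 of the other group. Deviations from a group mean cancel out within the group, so the negative signs of library 3 follow from the positive r among libraries 1 and 2. The values set libraries 1 and 2 apart from library 3 and do not show pairing by number. Same-numbered pairs with the empty vector had negative r. A block in only the 6 mutant and wildtype libraries was added after the data were seen. A further marker list is not reported here. The test script was tested on simulated data.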

Additional observations from a re-analysis of the deposited data

How the results depend on the processing

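With mutant against wildtype, 2 genes of the set were higher and 2 lower under every alternative run. With wildtype GATA1 against the empty vector, the count of lower genes became 1 without wildtype replicate 1 (range over left-out libraries 1 to 2) and the count of higher genes ranged from 2 to 3, the gene lost being Jun. With mutant against empty vector, the count of higher genes became 1 (Jun) with no low count filter, 1 with DESeq2 and 1 without empty vector replicate 3 (range over left-out libraries 0 to 1), and no gene was lower in any setting. The log2 fold change of Dusp1 ranged from 3.65 to 3.70 in wildtype against empty vector and from -3.42 to -3.19 in mutant against wildtype. In mutant against empty vector, where no call was made, Ier2 moved to -0.01 without empty vector replicate 1, against a reported 0.08. With the replicate block over 9 libraries Jun lost its wildtype call (adjusted p = 0.0736), as did Dusp7, and Sgk1 lost its mutant call. With the replicate block in only the 6 mutant and wildtype libraries, chosen after seeing the data, 2 genes of the set were higher and 2 lower, with Dusp1 at -3.29, Junb at -0.59, Egr1 at 1.19 and Ier2 at 0.63; over all genes it called 2323 higher and 2417 lower, against 1437 and 1412 in the same 6 libraries with no block. Over 9 libraries the block gave 1054 higher and 1001 lower, against 1313 and 1267 without it. The cause of these moves was not tested. Depth limits Jun, Fos and Dusp4, each with under 55 counts in every library, and Dusp2, Dusp5 and Dusp6, which had at most 1 count.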
